A study of Mus musculus with 96 samples.

Results

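Macrophages given Torin before lipopolysaccharide (LPS) were compared with macrophages given the vehicle DMSO before LPS, across all genes measured. The comparison took 16 of the 96 libraries of the series, 8 labelled Torin and 8 labelled DMSO, chosen by these labels and not by any measured value. All cells were wild-type macrophages derived from bone marrow in a conditioned medium that holds the growth factor MCSF, and the donor mice were C57BL/6 males aged 8 weeks. Torin wells received Torin for 30 min and then LPS, a bacterial cell wall component, and were lysed 4 h after LPS. Wells of tBHQ, pGE2 and Halofuginone, named here as labelled, were treated the same way with those compounds and LPS and served for direct comparisons with Torin. DMSO wells received the vehicle and LPS, and NoStim wells received no LPS and have no stated vehicle. Every group had 8 libraries, from 4 wells on each of 2 plates. The labels give neither the dose nor which Torin compound was used, and no well received Torin without LPS. Whether each well was its own culture is not stated either, so p-values measure the spread between wells, which may be technical.

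Compounds of the Torin family bind the ATP pocket of the kinase mTOR and block its activity in both of its complexes. Complex 1 senses amino acids at the lysosome through the Rag GTPases, drives translation of ribosomal protein transcripts and lipid synthesis, and holds the transcription factors TFEB and TFE3 in the cytoplasm. Complex 2 phosphorylates the kinase AKT, which keeps FOXO transcription factors out of the nucleus. In macrophages the pathway is known to act downstream of Toll-like receptors and to shape the balance of cytokines, with IL-10 among its studied targets.

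The libraries counted the 3′ ends of transcripts, and levels are given as CPM, counts scaled to a common library total with the TMM method. Total counts ran from 148284 to 309247 in Torin libraries and from 201162 to 323049 in DMSO libraries, a ratio of means of 0.809 (exact permutation p = 0.0336, two-sided, adjusted p = 0.134 over 12 measures). Rn45s, the ribosomal RNA precursor, took 15.9% to 29.4% of counts in Torin libraries and 9.43% to 23.7% in DMSO libraries. At this depth a single count is worth several CPM, so many low genes could not be tested. The 25 measured macrophage markers were all detected, and their summed level was 6554 to 7726 CPM in Torin libraries and 8024 to 9763 CPM in DMSO libraries, which did not overlap (ratio of means 0.825, exact permutation p = 0.000155, adjusted p = 0.000932). With wells of the same name on both plates summed, 4 values a group allow no exact p below 0.0286, and the adjusted p for these markers was 0.114. The part of this difference in the results below was not tested. Most defining genes of other cells were at or near 0, the exceptions with more than 10 CPM in either group being Cxcr2, Xcr1 and Blnk. Of 11 neutrophil markers 6 had no count in the 16 libraries, as had 9 of 12 T and NK cell markers, 5 of 8 B cell markers, 6 of 11 stromal markers, 7 of 9 erythroid markers, 2 of 10 dendritic cell markers and 7 of 9 mast cell and basophil markers. The summed B cell list was higher with Torin, at 102 to 237 CPM, against 43.4 to 96.3 CPM in DMSO libraries (p = 0.000155 by exact permutation, 0.000932 after adjustment), and all but a few counts of it came from Blnk. Blnk, an adaptor of immune receptor signalling that macrophages also express, had 102 to 237 CPM (median 171) in Torin libraries, 40.3 to 96.3 CPM (median 66) in DMSO libraries and 80.9 to 158 CPM (median 110.1) in NoStim libraries (1.3 ± 0.19 in log2, Torin over DMSO).

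Of 4963 genes with enough counts to test, 830 (16.7%) passed an adjusted p threshold of 0.05, 477 (9.61%) higher and 353 (7.11%) lower with Torin. The signs matched on plate 1 and plate 2 for 828 of the 830. These calls came from a fit of both plates together, which favours matching signs, so the match is not an independent check. A change of at least 2-fold was seen for 204 of the higher and 91 of the lower genes. In 241 genes (4.86%) the groups did not overlap, with every Torin library above every DMSO library in 172 (3.47%) and below in 69 (1.39%). Same-lettered wells of a treatment correlated weakly between the plates in their deviations from the group mean. With those wells summed to 4 a group, 732 of 6947 tested genes passed, 454 higher and 278 lower, and 677 of them were shared with the 830. Plate 1 alone gave 438 of 5118 tested genes and plate 2 alone 328 of 4886. No gene passed a test of whether the Torin effect differed between plates (edgeR, 0 of 4963 after adjustment, 156 at an unadjusted p under 0.05). Fold changes below are log2 values, Torin over DMSO, ± the standard error of the fit.

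**Figure D1:**
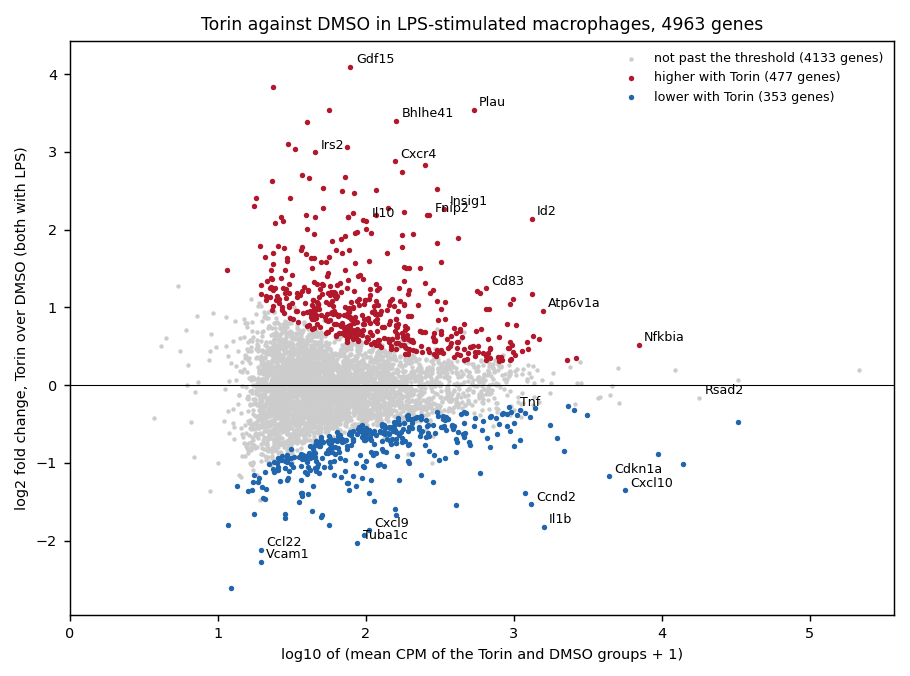
Each point is 1 of 4963 tested genes, with its mean level in the Torin and DMSO groups on the x axis (log10 of CPM + 1) and its log2 fold change, Torin over DMSO, on the y axis. The 477 genes higher with Torin (red) reach 4.09 for Gdf15, and the 353 lower genes (blue) include abundant LPS-response genes such as Cxcl10 and Il1b.

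Promoters of genes that the results turn on are shown first, since short motifs were counted over the genes called. The windows are RefSeq's in GRCm38.p6, the build also called mm10, from 250 bases before to 50 bases after a transcript start given for the gene, and 3778 of the 4963 tested symbols matched at least 1 window. The E-box CACGTG, a motif bound by TFEB, TFE3 and many other factors of the basic helix-loop-helix class, lay on either strand in a window of 489 (12.9%) of these genes. It was present for 67 of 357 genes higher with Torin (18.8%) and 25 of 279 lower genes (8.96%). The motif GAAA, any 2 bases, GAAA, a core of the interferon-stimulated response element, lay in windows of 183 genes (4.84%), 15 of the 357 higher genes (4.20%) and 31 of the 279 lower genes (11.1%). It was found for 30 of 56 interferon-response genes with a window. The forkhead motif GTAAACA lay in 113 genes in all (2.99%), in 18 of the higher genes (5.04%) and in 6 of the lower genes (2.15%). In all 12 motifs were counted. The ETS site CCGGAAGT was in 378 of the 3778 genes, 5.6% of the higher and 4.66% of the lower genes. The TATA box TATAAA was in 9.21% of all, 11.5% of the higher and 15.8% of the lower genes. CGTGAC, which can overlap the E-box, was in 18.8% of all, 23.8% of the higher and 15.1% of the lower genes. GTCACGTG and TCACGTGA, which contain the E-box, were in 6.48% and 3.15% of all, 10.1% and 4.48% of the higher, and 3.23% and 1.43% of the lower genes. The STAT site TTCNNNGAA was in 8.02% of all, 6.44% of the higher and 9.32% of the lower genes. TGATGNAA (3.02% of all), TGACGTCA (4.02%) and the NF-kB motif of GGGA, any base, TTTCC (0.715%) were the others. A match is a description of these windows and does not show that a factor was bound. The first 4 windows below belong to genes higher with Torin and hold the E-box in capitals. They are Fnip1 (chr11:54437929-54438228, + strand), Rragc (chr4:123917183-123917482, + strand), Irs2 (chr8:11008880-11009179, - strand) and Insig1 (chr5:28071162-28071461, + strand). The last 2 belong to genes lower with Torin, Isg15 (chr4:156200769-156201068, - strand) and Ifit3 (chr19:34583279-34583578, + strand), with the spaced GAAA motif, read on either strand, in capitals. Matches in Isg15 overlap. Motif and direction did not always go together in genes named here. The E-box also lay in windows of the lower genes Lamtor1, Dusp2 and Eif5a. The spaced GAAA motif also lay in windows of Sgk1, higher with Torin, and Rsad2, which was not called. The start behind the Fnip1 and Ifit3 windows is not the outermost start of the gene: the gene spans are chr11:54438107-54518241 for Fnip1 and chr19:34583119-34588982 for Ifit3, and the Ifit3 window lies inside its span.
Fnip1: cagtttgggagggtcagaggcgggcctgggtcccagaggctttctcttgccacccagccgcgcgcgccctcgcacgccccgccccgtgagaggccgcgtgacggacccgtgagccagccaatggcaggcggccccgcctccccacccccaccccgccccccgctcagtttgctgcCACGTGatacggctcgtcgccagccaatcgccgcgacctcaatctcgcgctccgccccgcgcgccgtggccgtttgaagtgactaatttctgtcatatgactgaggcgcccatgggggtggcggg
Rragc: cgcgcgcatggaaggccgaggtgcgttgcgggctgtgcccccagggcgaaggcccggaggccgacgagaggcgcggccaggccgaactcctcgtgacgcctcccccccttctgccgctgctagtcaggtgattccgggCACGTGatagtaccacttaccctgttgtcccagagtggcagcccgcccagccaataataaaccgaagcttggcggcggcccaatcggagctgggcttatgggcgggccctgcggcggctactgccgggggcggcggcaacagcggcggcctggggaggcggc
Irs2: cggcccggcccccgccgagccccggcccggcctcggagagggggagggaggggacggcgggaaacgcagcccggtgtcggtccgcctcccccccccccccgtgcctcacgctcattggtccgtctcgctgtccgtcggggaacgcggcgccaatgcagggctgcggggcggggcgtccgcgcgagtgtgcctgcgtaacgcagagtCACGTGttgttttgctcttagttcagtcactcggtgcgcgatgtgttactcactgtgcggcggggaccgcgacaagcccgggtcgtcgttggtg
Insig1: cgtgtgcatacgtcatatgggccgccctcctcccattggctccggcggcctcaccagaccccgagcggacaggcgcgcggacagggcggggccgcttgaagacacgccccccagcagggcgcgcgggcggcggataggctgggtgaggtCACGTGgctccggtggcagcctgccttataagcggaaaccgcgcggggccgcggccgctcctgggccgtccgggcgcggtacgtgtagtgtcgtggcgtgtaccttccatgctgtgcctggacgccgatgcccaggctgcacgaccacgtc
Isg15: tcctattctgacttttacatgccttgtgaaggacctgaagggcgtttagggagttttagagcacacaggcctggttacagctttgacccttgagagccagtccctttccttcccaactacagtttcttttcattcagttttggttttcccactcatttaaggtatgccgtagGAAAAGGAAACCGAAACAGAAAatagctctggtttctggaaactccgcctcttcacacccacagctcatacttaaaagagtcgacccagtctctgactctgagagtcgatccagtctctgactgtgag
Ifit3: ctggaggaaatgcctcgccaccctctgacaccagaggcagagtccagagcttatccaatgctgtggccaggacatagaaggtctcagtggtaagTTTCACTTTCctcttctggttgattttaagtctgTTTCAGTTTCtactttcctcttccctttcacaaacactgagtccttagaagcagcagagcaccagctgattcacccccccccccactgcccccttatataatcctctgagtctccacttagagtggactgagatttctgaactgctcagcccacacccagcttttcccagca

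Both partners of folliculin, a protein that acts on the Rag GTPases at the lysosome, were higher with Torin. Fnip1, which encodes folliculin interacting protein 1, had 197 to 299.7 CPM (median 225) in Torin libraries, 27.9 to 86.7 CPM (median 48.2) in DMSO libraries and 51.6 to 155 CPM (median 83.2) in NoStim libraries (2.28 ± 0.21, adjusted p = 2.33e-17). Its paralogue Fnip2 (chr3:79455971-79568151) had 352 to 545 CPM (median 447) in Torin libraries, 65.1 to 137 CPM (median 90.9) in DMSO libraries and 72.8 to 151 CPM (median 119) in NoStim libraries (2.19 ± 0.15, adjusted p = 1.34e-25). For both genes no Torin library overlapped any DMSO or NoStim library. Flcn, folliculin itself, was low in level and also higher with Torin, with 11 to 49.6 CPM (median 26.7) in Torin libraries and 0 to 21.7 CPM (median 7.21) in DMSO libraries, though the groups overlapped (1.8 ± 0.42, adjusted p = 0.000616). Rragc, the Rag GTPase that folliculin acts on, had 102 to 159.7 CPM (median 136) in Torin libraries, 55.7 to 92.8 CPM (median 74.6) in DMSO libraries and 69.8 to 136 CPM (median 102) in NoStim libraries, and every Torin library lay above the DMSO libraries (0.84 ± 0.18). Sgk1, a kinase whose protein mTOR complex 2 activates, had 118 to 201 CPM (median 150.1) in Torin libraries and 37.1 to 85.2 CPM (median 66) in DMSO libraries (1.24 ± 0.21). Lamtor1, a subunit of the Ragulator scaffold for Rag GTPases, was lower (-0.90 ± 0.30, adjusted p = 0.0249). It did not pass without library Torin 1F, 2E or 2F or library DMSO 1H or 2G (-0.82 to -0.68, adjusted p 0.0549 to 0.143). The call was also lost within either plate, without the count filter and without letter E, F or H. Of 42 listed components of the mTOR pathway 23 could be tested, 5 were higher and 1 lower (26.1% called, against 16.7% of all genes). Their median was 0.01, against -0.02 over all tested genes.

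Of 42 listed MiT/TFE factors and autophagy genes 26 could be tested, 7 were higher, none was lower (26.9% called, against 16.7% of all genes), and the median was 0.29. The list held 2 higher genes within plate 1, 2 higher and 1 lower within plate 2, and 5 higher with same-named wells summed. Tecpr1, which takes part in autophagosome maturation, had 147 to 202 CPM (median 164) in Torin libraries and 26 to 73.5 CPM (median 39.2) in DMSO libraries, with no overlap (1.95 ± 0.23, adjusted p = 1.04e-12). Gabarapl1 (1.41 ± 0.34) and Atg12 (1.03 ± 0.28), which encode parts of the autophagosome conjugation machinery, were higher with overlapping groups. Among 64 listed lysosome and V-ATPase genes 53 could be tested, 9 were higher and 4 lower (24.5% called), and the median was 0.02, near that of all genes. Within plate 1 the count was 3 higher and none lower, and within plate 2 it was 4 higher and 2 lower. The V-ATPase pump, which acidifies the lysosome, accounted for 4 of the 9. Its catalytic subunit gene Atp6v1a (chr16:44085402-44139702) had 1906 to 2438 CPM (median 2033) in Torin libraries, 929 to 1235 CPM (median 1088) in DMSO libraries and 1020.1 to 1679 CPM (median 1226) in NoStim libraries, and every Torin library was above all DMSO and NoStim libraries (0.95 ± 0.10, adjusted p = 5.32e-14). Atp6v1c1 was also higher (0.79 ± 0.19). The protease gene Ctsl had 878 to 1274 CPM (median 1174) in Torin libraries and 485 to 789 CPM (median 632) in DMSO libraries, again without overlap (0.79 ± 0.11).

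Several genes that carry or restrain insulin and growth factor signals were higher. Irs2, the adaptor that carries insulin receptor signals to PI3 kinase, had 38.5 to 119 CPM (median 77.2) in Torin libraries, 0 to 37.3 CPM (median 7.57) in DMSO libraries and 0 to 22.8 CPM (median 5.0) in NoStim libraries (3.0 ± 0.38, adjusted p = 5.69e-11). In DMSO libraries 37.3 CPM was a single high value, the next was 10.6 CPM, and the fold change was 3.49 without that library. Pik3r1 (chr13:101680761-101768217), the regulatory subunit of PI3 kinase, had 225 to 348 CPM (median 262) in Torin libraries and 55.7 to 174 CPM (median 89.6) in DMSO libraries (1.52 ± 0.17). The catalytic subunit gene Pik3ca followed with 159.9 to 277 CPM (median 196) in Torin libraries and 101 to 147 CPM (median 113) in DMSO libraries (0.74 ± 0.15). Neither subunit gene showed overlap between the groups. Of 30 listed FOXO targets and insulin feedback genes 23 could be tested, 9 higher and none lower (39.1% called, against 16.7% of all genes). The median was 0.29. Gadd45a, a stress-induced regulator of cell cycle arrest, had 45.3 to 126 CPM (median 93) in Torin libraries and 3.54 to 21.7 CPM (median 17) in DMSO libraries (2.53 ± 0.34). Cdkn1b, the cyclin-dependent kinase inhibitor p27, had 121 to 283 CPM (median 196) in Torin libraries and 61.9 to 119 CPM (median 90.4) in DMSO libraries (1.08 ± 0.21). Klf2 (1.51 ± 0.30), a transcription factor, and Il7r (1.1 ± 0.19), a cytokine receptor gene, were also higher.

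**Figure D2:**
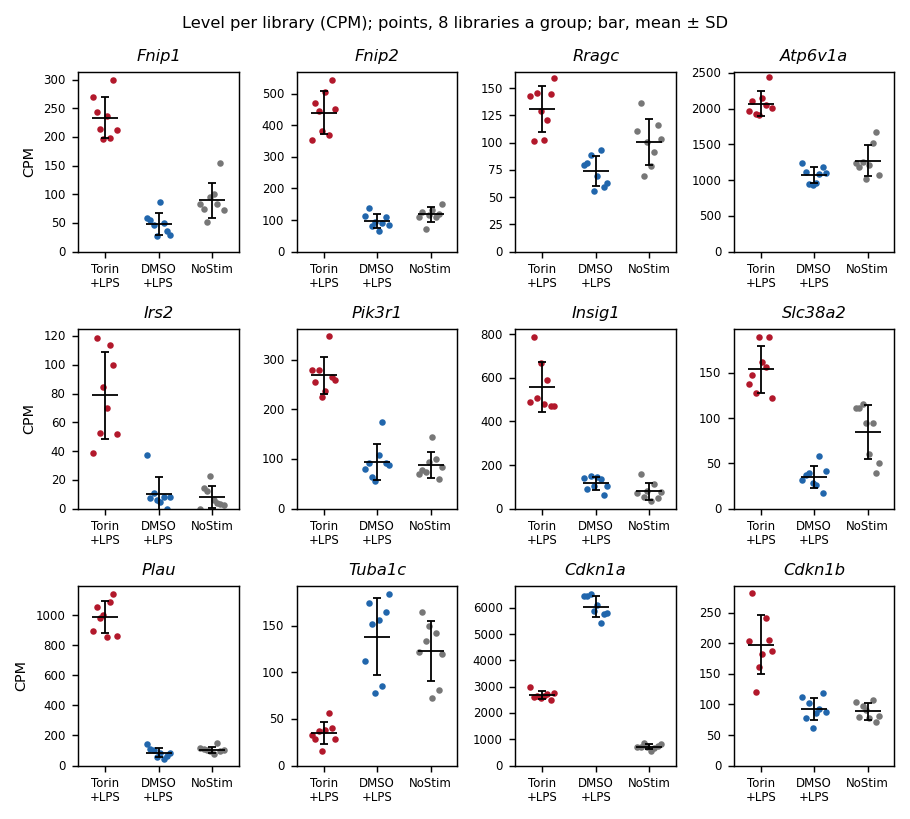
Level of 12 genes (CPM, y axis from 0) in each of 8 Torin, 8 DMSO and 8 NoStim libraries, with the mean and SD. Fnip2 lies between 352 and 545 CPM in Torin libraries and between 65.1 and 137 CPM in DMSO libraries, while Cdkn1a and Tuba1c lie lower in every Torin library than in any DMSO library.

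Cell cycle regulators differed in both directions. Cdkn1a, the inhibitor p21, had 2508 to 2995 CPM (median 2649) in Torin libraries, 5411 to 6533 CPM (median 5983) in DMSO libraries and 571 to 849.6 CPM (median 709.7) in NoStim libraries (-1.17 ± 0.11, adjusted p = 1.83e-17), the reverse of its relative Cdkn1b. Ccnd2, cyclin D2, had 565 to 794 CPM (median 649) in Torin libraries, 1689 to 2186 CPM (median 1914) in DMSO libraries and 125 to 167 CPM (median 154) in NoStim libraries (-1.53 ± 0.13). Both genes lay between the NoStim and DMSO levels in every Torin library. Mdm2, the ligase that restrains p53, was higher (1.08 ± 0.15), with 349.7 to 491 CPM (median 401) in Torin libraries and 121 to 308 CPM (median 168) in DMSO libraries. Hbp1, a repressor of growth genes, had 93.9 to 195 CPM (median 117) in Torin libraries and 14.2 to 40.8 CPM (median 29.9) in DMSO libraries (2.21 ± 0.24).

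Among genes of amino acid supply and stress, Gdf15 had the highest fold change of all tested genes. This stress-induced cytokine had 109.9 to 179.8 CPM (median 153) in Torin libraries, 3.1 to 12.6 CPM (median 9.02) in DMSO libraries and 0 to 7.16 CPM (median 5.0) in NoStim libraries (4.09 ± 0.32). Slc38a2, the amino acid transporter SNAT2, had 122 to 189.8 CPM (median 152) in Torin libraries, 17.5 to 58 CPM (median 34.5) in DMSO libraries and 38.8 to 115 CPM (median 94.8) in NoStim libraries (2.13 ± 0.22), again with no overlap between Torin and DMSO. Both are in the list of ATF4 targets and amino acid supply genes, ATF4 being a stress transcription factor. Of 33 listed 17 could be tested, 7 were higher and 1 lower (47.1% called, against 16.7% of all genes), with a median of 0.31. Within plate 1 the list held 4 higher genes, within plate 2 it held 3, and with same-named wells summed 5. The lower gene was Mthfd2, an enzyme of mitochondrial folate metabolism (-1.12 ± 0.36). It did not pass without library Torin 2F (-0.96, adjusted p = 0.0546) or DMSO 2G (-1.0, adjusted p = 0.0560). Its call was also lost within either plate and without letter G or H. Asns, asparagine synthetase, had 7.1 to 16.1 CPM (median 11.9) in Torin libraries and 0 to 26 CPM (median 9.91) in DMSO libraries and did not pass (0.28 ± 0.50, adjusted p = 0.774). Atf4 itself had 113 to 181 CPM (median 159) in Torin libraries and 85.2 to 156 CPM (median 126) in DMSO libraries and did not pass (0.31 ± 0.17, adjusted p = 0.224). Of 20 transfer RNA synthetase genes 15 could be tested and only Rars was called (0.66 ± 0.22). It did not pass without library Torin 1G or 2H or DMSO 2H (0.53 to 0.60, adjusted p 0.0518 to 0.103). The Rars call was also lost within either plate, without the count filter and without letter G or H.

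Lipid genes went both ways. Of 24 listed genes of cholesterol efflux and lipid droplets 21 could be tested, 5 higher and 4 lower (42.9% called, against 16.7% of all genes). The median was 0.11. In sterol synthesis, Insig1, which retains the sterol-sensing machinery in the endoplasmic reticulum, had 469.6 to 787 CPM (median 499) in Torin libraries, 63.1 to 149 CPM (median 120.3) in DMSO libraries and 36.2 to 157 CPM (median 75.5) in NoStim libraries (2.27 ± 0.17, adjusted p = 3.83e-23). Of 37 listed sterol and fatty acid synthesis genes only 8 could be tested at this depth, 2 were higher and none was lower. That was 25% called, against 16.7% of all genes, and the median was -0.15. Hilpda, a lipid droplet protein that inhibits the lipase ATGL, had 83.8 to 137 CPM (median 93.2) in Torin libraries and 0 to 16 CPM (median 9.65) in DMSO libraries (3.55 ± 0.34). The fatty acid binding protein genes Fabp4 (1.69 ± 0.26) and Fabp5 (1.22 ± 0.17) were higher, and every Torin library lay above the DMSO libraries for both. Lipg, endothelial lipase, was lower, with 25 to 49.5 CPM (median 41) in Torin libraries, 88 to 188 CPM (median 159) in DMSO libraries and 3.58 to 24.7 CPM (median 14.6) in NoStim libraries (-1.93 ± 0.23). Ch25h, which makes 25-hydroxycholesterol, was lower too (-1.05 ± 0.24), and its groups overlapped.

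Ribosomal protein transcripts showed small and mostly upward differences, and other genes of protein synthesis few. All 81 listed ribosomal protein genes could be tested, 20 were higher and none was lower (24.7% called, against 16.7% of all genes). In 70 the fold change was above 0, and the median was 0.19. Many of these genes have near-identical copies in the genome, so the assignment of their reads is uncertain. The count of 20 became 13 with same-named wells summed, 1 within plate 1, 3 within plate 2 and 42 with the Rn45s share as a covariate, while the median stayed between 0.14 and 0.27 under all settings tried. Rpl12 had 572 to 775 CPM (median 708) in Torin libraries and 329.6 to 538 CPM (median 394) in DMSO libraries (0.70 ± 0.13, adjusted p = 4.11e-06), and Rplp1 had 996 to 1363 CPM (median 1128) in Torin libraries and 685 to 900.0 CPM (median 818) in DMSO libraries (0.51 ± 0.10). Neither overlapped. Of 43 listed translation factors 40 could be tested, 4 were higher and 2 lower (15% called, against 16.7% of all genes). The median was -0.02, with none called within plate 1 and 2 higher and 1 lower within plate 2. The initiation factor genes Eif1a (0.57 ± 0.15) and Eif5 (0.55 ± 0.12) were higher, while Eif5a (-0.67 ± 0.15), whose protein carries the hypusine modification, was lower. The Eif1a call was lost within either plate, the Eif5 call within plate 1, and the Eif5a call within plate 1 and without letter H. Ribosome biogenesis showed little, with 1 gene higher and 1 lower of 25 tested (50 listed, 8% called, against 16.7% of all genes). The higher was the nucleolar GTPase gene Gnl3 (0.90 ± 0.23).

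Some transcripts of the respiratory chain, the proteasome, the secretory pathway and the cytoskeleton were lower. Of 77 listed nuclear genes of oxidative phosphorylation 74 could be tested, 18 were lower and 1 was higher. That was 25.7% called, against 16.7% of all genes, and the median was -0.44. The lower genes included subunits of the NADH dehydrogenase, cytochrome c oxidase and ATP synthase complexes, among them Ndufb7 (-1.07 ± 0.26), Cox5b (-0.94 ± 0.21) and Atp5d (-1.43 ± 0.32). Atp5d, a subunit of ATP synthase, had 0 to 39.97 CPM (median 18.7) in Torin libraries, 21.7 to 87.7 CPM (median 44.7) in DMSO libraries and 33.5 to 111 CPM (median 63.8) in NoStim libraries. The higher gene was Cox7a2l, a factor of respiratory supercomplexes (0.58 ± 0.18), which did not pass without library Torin 2E (0.48, adjusted p = 0.0611). Its call was also lost within either plate, without the count filter and without letter E or H. The count of lower genes was 9 with same-named wells summed, 6 within plate 1 and 0 within plate 2, where the medians were -0.43, -0.45 and -0.32. Of 37 listed proteasome subunits 35 could be tested, 7 were lower and none was higher. The share called was 20%, against 16.7% of all genes (7.11% lower). The median was -0.31, with 4 lower within plate 1 and 3 within plate 2. Psmb3 had 24.8 to 38.5 CPM (median 28.3) in Torin libraries and 48.2 to 81.2 CPM (median 64) in DMSO libraries, with no overlap (-1.12 ± 0.24), and Psmd11 was lower by a smaller margin (-0.75 ± 0.14).

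Of 42 listed genes of folding in the endoplasmic reticulum and the unfolded protein response 36 could be tested, 7 were lower and 1 was higher. The share called was 22.2%, against 16.7% of all genes. The median was -0.28, with 3 lower within plate 1 and 2 within plate 2. Hspa5, the chaperone BiP, had 359.7 to 599 CPM (median 502) in Torin libraries and 574 to 842 CPM (median 729.8) in DMSO libraries (-0.57 ± 0.11, adjusted p = 1.83e-05). The higher gene was Crebrf, a negative regulator of CREB3, with 47 to 163 CPM (median 107) in Torin libraries and 14.8 to 42.6 CPM (median 27.6) in DMSO libraries (1.87 ± 0.26). In the cytosol the chaperone genes Dnaja1 (-1.16 ± 0.15) and Hspa1b (-1.4 ± 0.32) were lower, and reads of Hspa1b can also fit its near-identical copy Hspa1a. Of 25 listed cytosolic heat shock genes 20 could be tested, 2 were lower and 1 higher. This was 15% called, against 16.7% of all genes, with a median of -0.22. Of 36 listed tubulin and actin cytoskeleton genes 32 could be tested, 9 lower and 2 higher (34.4% called, against 16.7% of all genes). Their median was -0.19. The 9 lower genes numbered 4 within plate 1, 1 within plate 2 and 8 with same-named wells summed. Tuba1c (chr15:99029891-99038105) had 16.1 to 56.8 CPM (median 35.1) in Torin libraries, 77.4 to 184 CPM (median 154) in DMSO libraries and 72.5 to 165 CPM (median 127) in NoStim libraries, below every library of both other groups (-2.02 ± 0.23, adjusted p = 1.01e-12). Tuba1b was lower as well (-0.90 ± 0.19), and reads of these alpha tubulins can be hard to tell apart. Vim, the intermediate filament vimentin, went the other way, with 764 to 986 CPM (median 947) in Torin libraries and 319.5 to 538 CPM (median 467) in DMSO libraries (0.98 ± 0.11).

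**Figure D3:**
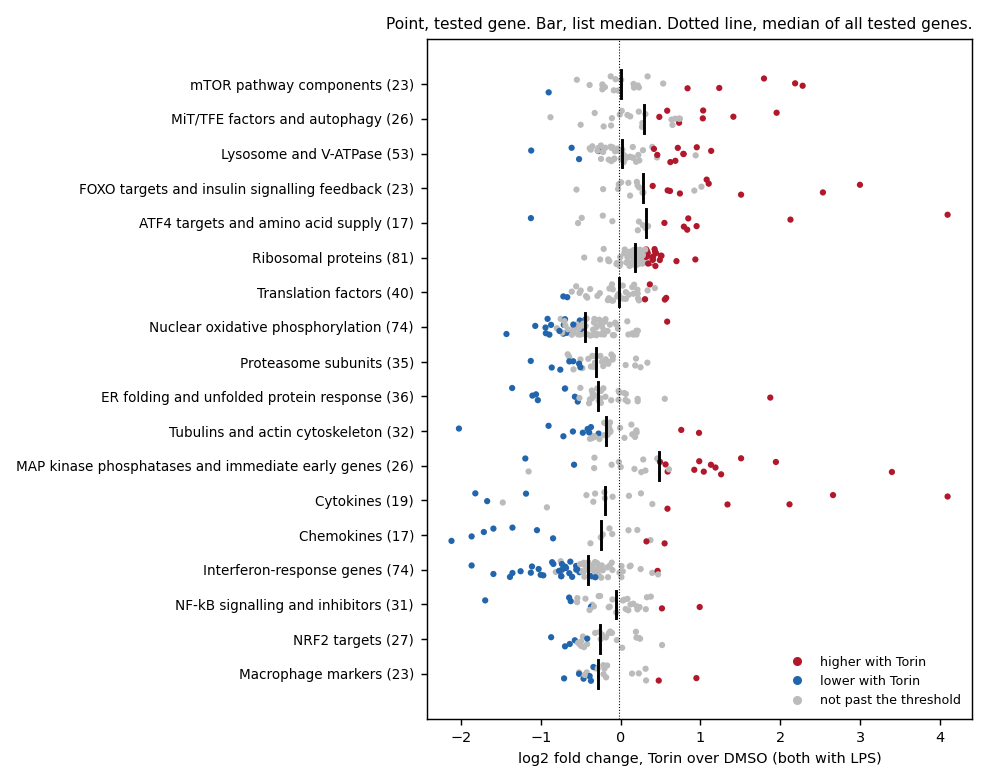
Log2 fold change, Torin over DMSO, of each tested member of 18 gene lists (rows, with the number tested), coloured where the gene passed the threshold. Bars mark list medians, which run from -0.44 for nuclear oxidative phosphorylation to 0.48 for MAP kinase phosphatases and immediate early genes, and the dotted line marks the median of all tested genes, -0.02.

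Cytokine genes induced by LPS did not move together. NoStim levels are given beside the values as levels only, because the DMSO libraries enter every comparison with them. Il10, an anti-inflammatory cytokine (chr1:131019845-131024970), had 129 to 193 CPM (median 166) in Torin libraries, 11.6 to 63 CPM (median 38.2) in DMSO libraries and 0 to 13 CPM (median 3.31) in NoStim libraries, and was higher with Torin in all 8 libraries (2.12 ± 0.24, adjusted p = 3.59e-13). Il1b, the inflammasome cytokine (chr2:129364569-129371164), had 606 to 813 CPM (median 716) in Torin libraries, 2060.2 to 3297 CPM (median 2414) in DMSO libraries and 76.3 to 248 CPM (median 138) in NoStim libraries (-1.82 ± 0.14, adjusted p = 1.23e-21). Il6, the acute phase cytokine, had 15.5 to 38.5 CPM (median 22.8) in Torin libraries and 58 to 99.1 CPM (median 74.9) in DMSO libraries (-1.67 ± 0.28). Il1b and Il6 were thus lower in every Torin library than in any DMSO library, and Il1a was lower with overlap (-1.18 ± 0.31). Tnf had 754 to 1054 CPM (median 901) in Torin libraries and 1006 to 1204 CPM (median 1120.0) in DMSO libraries and did not pass (-0.32 ± 0.13, adjusted p = 0.0706). It passed in 4 of 33 other settings, with fold changes of -0.50 to -0.16 over all 33. Its fold change was -0.49 within plate 1 (edgeR, adjusted p = 0.032) and -0.16 within plate 2 (adjusted p = 0.723). The interleukin-12 subunit gene Il12b had 199 to 306 CPM (median 235) in Torin libraries and 235 to 365 CPM (median 263) in DMSO libraries and did not pass (-0.20 ± 0.16, adjusted p = 0.456). Tnfsf15, a TNF superfamily ligand, had 188 to 329.7 CPM (median 255) in Torin libraries, 56.4 to 134 CPM (median 112) in DMSO libraries and 0 to 24.7 CPM (median 3.42) in NoStim libraries (1.34 ± 0.18). Hbegf, a ligand of the EGF receptor, was higher with 51 to 106 CPM (median 69.1) in Torin libraries, against 3.71 to 21.3 CPM (median 7.7) in DMSO libraries (2.66 ± 0.37). Of 33 listed cytokines, Gdf15 among them, 19 could be tested, 5 were higher and 3 lower (42.1% called, against 16.7% of all genes). The median was -0.20.

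Chemokines were lower more than higher, with 7 lower and 2 higher of 17 tested (25 listed) and a median of -0.25. Of those tested 52.9% were called, against 16.7% of all genes. Cxcl9 (chr5:92321331-92328079), a ligand of CXCR3, had 27.9 to 62.3 CPM (median 44.9) in Torin libraries, 109 to 200.1 CPM (median 177) in DMSO libraries and 3.96 to 39.3 CPM (median 22.1) in NoStim libraries (-1.86 ± 0.23). The other CXCR3 ligand genes Cxcl10 (-1.35 ± 0.20) and Cxcl11 (-1.59 ± 0.21) were lower too, and for all 3 no Torin library reached a DMSO library. Ccl3, which encodes MIP-1 alpha, had 1184 to 2103 CPM (median 1472) in Torin libraries and 2302 to 3831 CPM (median 2661) in DMSO libraries (-0.85 ± 0.15). The gene for the monocyte attractant Ccl2 went the other way, with 922 to 1287 CPM (median 1128) in Torin libraries and 677 to 886 CPM (median 731) in DMSO libraries (0.55 ± 0.17, adjusted p = 0.0117). This call was lost within either plate, without letter G or H and without the count filter (0.46 to 0.62, adjusted p 0.0588 to 0.179). Ccl5 had 1774 to 3366 CPM (median 2177) in Torin libraries and 2425 to 3913 CPM (median 2642) in DMSO libraries and did not pass (-0.25 ± 0.17, adjusted p = 0.36). Among receptors of chemoattractants, Cxcr4 had 201 to 362 CPM (median 286) in Torin libraries, 17.3 to 55.6 CPM (median 37.2) in DMSO libraries and 450.0 to 619 CPM (median 542) in NoStim libraries (2.88 ± 0.23). The decoy receptor gene Ccrl2 was higher (1.51 ± 0.18), and the receptor gene Gpr84, a sensor of medium-chain fatty acids, was lower (-1.62 ± 0.29).

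**Figure D4:**
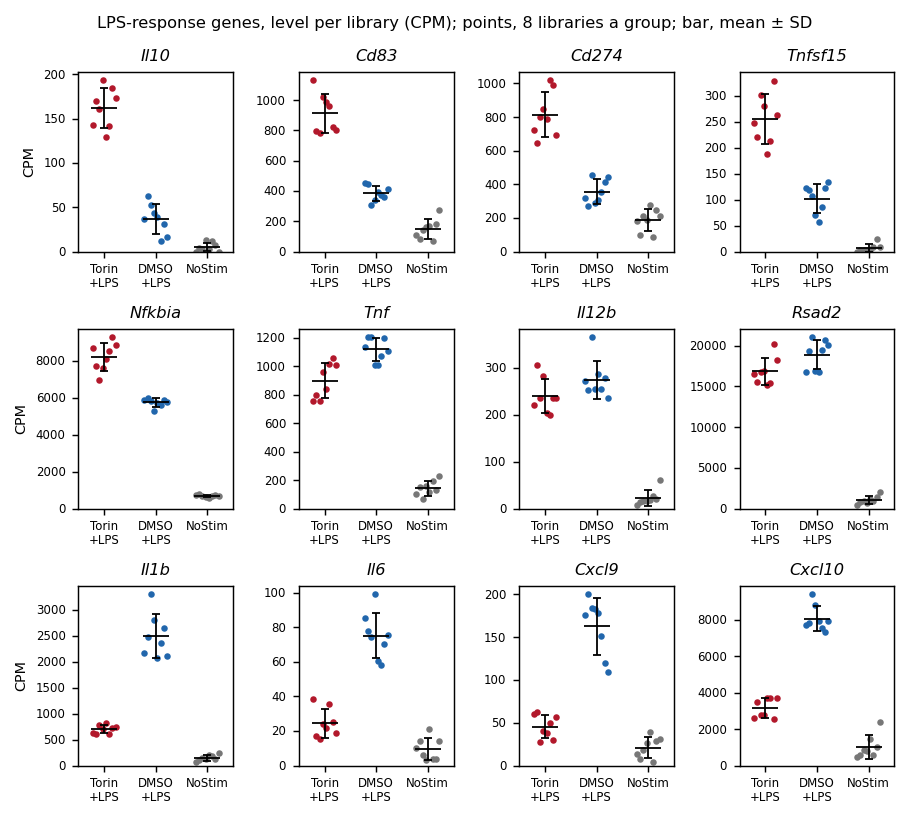
Level of 12 LPS-response genes (CPM, y axis from 0) in each of 8 Torin, 8 DMSO and 8 NoStim libraries, with the mean and SD. Il10, Cd83, Cd274, Tnfsf15 and Nfkbia lie higher in every Torin library than in any DMSO library, Il1b, Il6, Cxcl9 and Cxcl10 lie lower, and Tnf, Il12b and Rsad2 overlap between the groups.

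Interferon-response genes were lower in part. Of 77 listed 74 could be tested, 28 were lower and 1 was higher (39.2% called, against 16.7% of all genes). The median was -0.41. The higher gene, Trim25 (0.46 ± 0.17, adjusted p = 0.0458), did not pass without library Torin 1E, 1G, 1H or 2E or DMSO 1E, 1F, 2E, 2F, 2G or 2H (0.39 to 0.48, adjusted p 0.0539 to 0.123). Trim25 failed in 20 of 33 other settings, among them either plate alone and same-named wells summed. For 13 of the 74 tested genes every Torin library lay below every DMSO library, against 1.39% of all tested genes. The 28 lower genes numbered 21 with same-named wells summed, 20 within plate 1 and 13 within plate 2. Ifit3, an antiviral effector, had 101 to 249.8 CPM (median 162) in Torin libraries, 278 to 570.1 CPM (median 387) in DMSO libraries and 38.1 to 193 CPM (median 67.6) in NoStim libraries (-1.25 ± 0.22, adjusted p = 4.11e-06). Isg15, the ubiquitin-like modifier, had 481 to 708 CPM (median 640.4) in Torin libraries and 880.3 to 1052 CPM (median 910.1) in DMSO libraries (-0.63 ± 0.16). The GTPase genes Iigp1 (-1.12 ± 0.20), Igtp (-1.11 ± 0.23) and Mx1 (-0.86 ± 0.18) and the nucleotide kinase gene Cmpk2 (-1.38 ± 0.19) were lower without overlap. Rsad2, the antiviral enzyme viperin, had 15188 to 20193 CPM (median 16617) in Torin libraries and 16743 to 21034 CPM (median 19392) in DMSO libraries and did not pass (-0.17 ± 0.18, adjusted p = 0.586).

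Of 33 listed genes of JAK, STAT, IRF and SOCS signalling 29 could be tested, 6 were lower and 2 higher (27.6% called), and the median was -0.16. The count was 4 lower within plate 1 and 1 lower within plate 2, with none higher in either. The transcription factor genes Stat2 (-0.74 ± 0.18) and Irf7 (-0.74 ± 0.19) and the feedback inhibitor genes Socs1 (-0.84 ± 0.21) and Cish (-1.5 ± 0.35) were lower. Myd88, the adaptor of most Toll-like receptors, had 10.8 to 37.2 CPM (median 21) in Torin libraries, 46.1 to 96.7 CPM (median 79.7) in DMSO libraries and 14.3 to 41.9 CPM (median 25.4) in NoStim libraries (-1.69 ± 0.28, adjusted p = 4.11e-07), with no overlap between Torin and DMSO. Nfkbia, the inhibitor IkB alpha, had 6920.4 to 9272 CPM (median 8294) in Torin libraries and 5261 to 5999 CPM (median 5782) in DMSO libraries (0.52 ± 0.10), and the kinase gene Ripk2 was higher as well (0.99 ± 0.22). Nfkb2 was lower (-0.64 ± 0.18), a call lost within either plate and without letter E. The 31 tested genes of NF-kB signalling (34 listed) held 2 higher and 4 lower with a median of -0.05, a share of 19.4% near the 16.7% of all genes. Of 38 listed MAP kinase phosphatases and immediate early genes 26 could be tested, 12 were higher and 2 lower. That was 53.8% called, against 16.7% of all genes. The list is mixed, with Bhlhe41 as its highest member, and the phosphatase genes named below went both ways. The share is not a result about phosphatases as a class. The median was 0.48, with 6 higher and 3 lower within plate 1 and 7 higher and 1 lower within plate 2. Bhlhe41, a transcriptional repressor of the clock, had 149 to 497 CPM (median 292) in Torin libraries, 11.1 to 47.7 CPM (median 25.5) in DMSO libraries and 31.2 to 93 CPM (median 66.6) in NoStim libraries (3.4 ± 0.23). Zfp36l2, which promotes mRNA decay, had 16.5 to 139.9 CPM (median 71.7) in Torin libraries, 3.51 to 29.3 CPM (median 17) in DMSO libraries and 174 to 257 CPM (median 193) in NoStim libraries (1.94 ± 0.33). The phosphatase gene Dusp1 was higher (0.56 ± 0.16) and its relative Dusp2 lower (-0.58 ± 0.14), and the transcription factor gene Klf4 was higher (1.26 ± 0.27). The Dusp1 call was lost within either plate and without letter F, and the Dusp2 call within plate 2.

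Surface proteins that engage T cells were divided. Cd274, the checkpoint ligand PD-L1, had 646 to 1022 CPM (median 795) in Torin libraries, 270.5 to 457 CPM (median 336) in DMSO libraries and 87.1 to 278 CPM (median 198) in NoStim libraries (1.19 ± 0.18, adjusted p = 3.27e-07). Cd83, a marker of activated antigen-presenting cells, had 785 to 1132 CPM (median 889) in Torin libraries and 308 to 453 CPM (median 381) in DMSO libraries (1.25 ± 0.14), and Slamf7, a receptor of the SLAM family, had 1118 to 1653 CPM (median 1278) in Torin libraries and 469 to 746 CPM (median 620.3) in DMSO libraries (1.1 ± 0.18). None of the 3 overlapped between Torin and DMSO. Vcam1, an adhesion molecule, was near the detection limit with Torin, at 0 to 11 CPM (median 5.52), against 10.6 to 52 CPM (median 30.00) in DMSO libraries (-2.28 ± 0.47). The Vcam1 call was lost within plate 1. Of 31 listed costimulatory, adhesion and antigen presentation genes 23 could be tested, 4 were higher and 4 lower, with 3 higher and 1 lower within either plate. The called share was 34.8%, against 16.7% of all genes. In the urokinase and matrix protease list, with 12 of 21 tested, 2 were higher and 4 lower (50% called, against 16.7% of all genes). The median was -0.74, the lowest of the lists with more than 1 tested gene. In the fit of the 16 Torin and DMSO libraries alone 8 could be tested, with a median of 0.13. Plau, urokinase (chr14:20836662-20843388), had 856 to 1139 CPM (median 991) in Torin libraries, 42.5 to 144 CPM (median 83.1) in DMSO libraries and 78.5 to 147 CPM (median 102) in NoStim libraries (3.54 ± 0.21, adjusted p = 3.16e-26). Mmp14, a membrane-bound matrix protease, had 21.3 to 69.99 CPM (median 47.6) in Torin libraries and 73.7 to 163 CPM (median 117) in DMSO libraries (-1.3 ± 0.23). Of 23 tested macrophage markers 2 were higher and 6 lower (34.8% called, against 16.7% of all genes). The lower ones numbered 4 within plate 1, 2 within plate 2 and 3 with same-named wells summed. Tyrobp, a signalling adaptor, was at 736 to 955 CPM (median 832) in Torin libraries and 1184 to 1601 CPM (median 1363) in DMSO libraries (-0.71 ± 0.11), and Csf1r, the MCSF receptor, did not pass (-0.22 ± 0.12). Id2, an inhibitor of helix-loop-helix factors, and Bach1, a repressor of haem oxygenase, were in no list and were named after their values were seen. Id2 had 1921 to 2675 CPM (median 2049) in Torin libraries and 429 to 555 CPM (median 486) in DMSO libraries (2.14 ± 0.11, adjusted p = 2.92e-36, the smallest of all genes), and Bach1 had 526 to 769 CPM (median 678) in Torin libraries and 136 to 217 CPM (median 172) in DMSO libraries (1.89 ± 0.15).

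Direct tests set Torin against 3 of the other compounds of the series, so that the contrast itself holds no DMSO libraries, which still entered the filter and the estimate of spread. Against tBHQ 1898 genes (38.2%) passed, 991 (20%) higher with Torin and 907 (18.3%) lower. Against pGE2 1209 (24.4%) passed, 642 (12.9%) higher and 567 (11.4%) lower. Against Halofuginone 1820 (36.7%) passed, 1151 (23.2%) higher and 669 (13.5%) lower. Halofuginone libraries held 80196 to 136526 counts, fewer than any Torin library, and the part of depth in that last count was not tested. In 115 genes (2.32%) Torin was higher than in DMSO and in each of these 3 compounds, and in 7 genes (0.141%) it was lower than in all 4. Plau was higher with Torin than with tBHQ (3.81 ± 0.22), pGE2 (4.47 ± 0.23) and Halofuginone (1.78 ± 0.22). Insig1 was likewise higher than with tBHQ (2.79 ± 0.18), pGE2 (2.73 ± 0.18) and Halofuginone (1.44 ± 0.19), as was Fnip2 (1.35 ± 0.14, 2.69 ± 0.16 and 1.31 ± 0.18 in the same order). Ralgds, an activator of Ral GTPases, differed by a similar amount from each compound (2.65 ± 0.22 from tBHQ, 2.5 ± 0.22 from pGE2 and 2.76 ± 0.32 from Halofuginone), and Stx3, a membrane fusion protein, was higher than each (1.45 ± 0.16, 2.38 ± 0.17 and 2.25 ± 0.22). Fnip1 was higher than each as well (0.52 ± 0.18, 2.25 ± 0.21 and 0.67 ± 0.23). Tuba1c was lower than each (-2.29 ± 0.23, -2.01 ± 0.23 and -1.39 ± 0.31).

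The other compounds of the series were not tested against Torin, so the genes above are set apart only from these 3. Other genes called against DMSO were not set apart from all 3. Gdf15 was higher with Torin than with tBHQ (0.88 ± 0.22) and pGE2 (4.5 ± 0.33) but lower than with Halofuginone (-0.58 ± 0.23, adjusted p = 0.043). Slc38a2 differed from pGE2 (2.05 ± 0.22) and not detectably from tBHQ (-0.13 ± 0.18, adjusted p = 0.614) or Halofuginone (0.06 ± 0.23, adjusted p = 0.877). Il10 was higher than with tBHQ (4.05 ± 0.30) and Halofuginone (1.52 ± 0.30), and its difference from pGE2 was -0.07 ± 0.19 (adjusted p = 0.83). Il1b was lower than with pGE2 (-3.09 ± 0.14) and higher than with tBHQ (1.67 ± 0.15) and Halofuginone (0.50 ± 0.16). Cxcr4 was higher than with pGE2 (2.92 ± 0.23) and Halofuginone (0.72 ± 0.23), and its difference from tBHQ was -0.05 ± 0.18 (adjusted p = 0.86). Flcn was higher than with pGE2 (1.74 ± 0.41) and lower than with tBHQ (-0.91 ± 0.30, edgeR, adjusted p = 0.0111). Its difference from Halofuginone was -0.13 ± 0.45 (adjusted p = 0.863). Rragc was higher than with pGE2 (1.38 ± 0.18). Its differences from tBHQ (-0.06 ± 0.16) and Halofuginone (0.45 ± 0.22) did not pass (adjusted p = 0.799 and 0.0956). Each of these values is log2 ± SE with 8 libraries in either group.

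**Figure D5:**
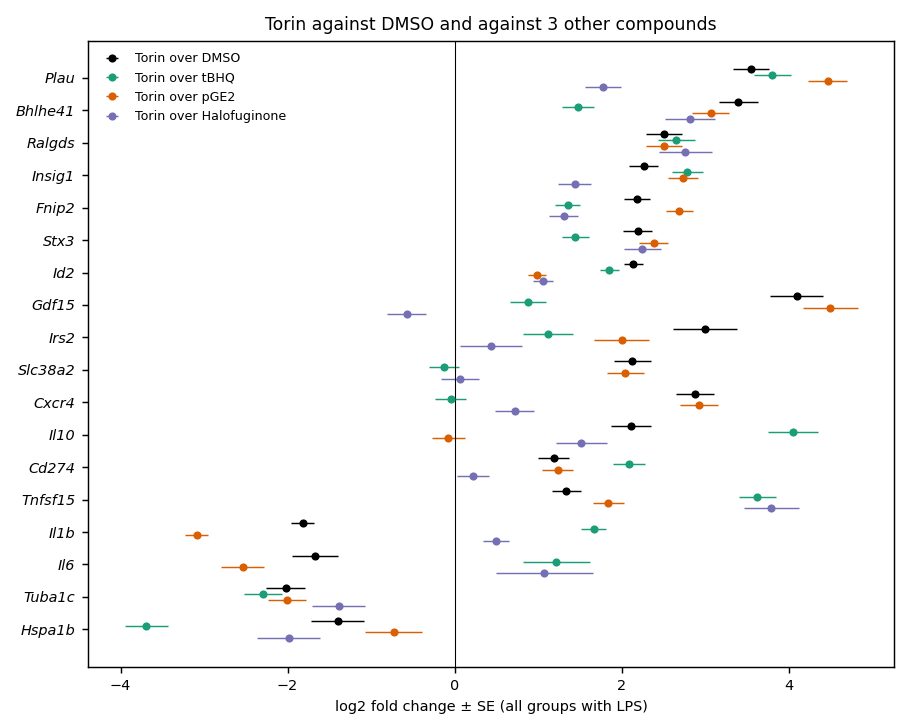
Log2 fold change ± SE of Torin over DMSO, tBHQ, pGE2 and Halofuginone (x axis) for 18 genes, all groups with LPS and 8 libraries each. Plau, Bhlhe41, Ralgds, Insig1, Fnip2, Stx3 and Id2 lie right of 0 in all 4 contrasts and Tuba1c left of 0 in all 4, while Gdf15, Il10 and Il1b change side or lie near 0 in at least 1.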

How the data were processed

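The deposited table holds raw counts for 23481 gene symbols in 96 libraries (0 sample columns were left unused). Per the submitters' processing notes, the authors' aligner was BWA and the genome build mm10. No source used here gives the aligner's version, the annotation or any collapsing of PCR copies, so counts may not be independent molecules. Per the labels' protocols, library preparation followed SCRB-Seq, in a modified form, and Nextera. The members, lists, tests and naming rule were chosen with earlier results of these data known, and lists carry no test. Lists share some members, such as Gdf15 (cytokines and ATF4 targets), so their counts are not separate results. The rule asked for a call, a mean of at least 30 CPM in whichever group was higher and 1 direction on the plates, and took the 15 top and 15 bottom fold changes, up to 4 passing members of each list and the 3 first-listed members. The text names a subset, and some genes beyond the rule that were chosen after their values were seen (Pik3r1, Pik3ca, Hbp1, Rragc, Lamtor1, Il1a, Ctsl, Cox7a2l, Ralgds, Id2, Bach1, Irf7, Ccl3, Ccl5, Rsad2, Trim25, Mdm2, Tnfsf15, Ch25h, Igtp, Iigp1, Mx1, Isg15, Il12b and Stx3).

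Tests used edgeR 4.0.16 in R 4.3.3 on all 96 libraries with group and plate as terms: TMM scaling, filterByExpr on the groups, robust quasi-likelihood F tests, two-sided, Benjamini-Hochberg adjustment over 4963 genes and a threshold of 0.05. A gene high in a single group could pass the filter through that group. DESeq2 1.42.0 was an alternative. Depth and marker sums were compared by exact permutation (SciPy), and the edgeR fit was tested on simulated data. There it recovered 13 of 67 genes changed 1.5-fold, 37 of 67 changed 2-fold and 64 of 66 changed 4-fold. A gene that did not pass is therefore not shown to be unchanged. Figures were drawn with matplotlib 3.10.9.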

Additional observations from a re-analysis of the deposited data

Results flagged for a closer look

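A library that stood apart from the other 7 of its group was found for 9 of 232 sets of 8 values examined, where chance alone gives about 1 in 20. In Torin libraries, Pik3r1 reached 348 CPM in library 2F against 280 CPM in the next, Hbegf 106 CPM in 2F against 75.4 CPM, Atp6v1a 2438 CPM in 2G against 2143 CPM, and Klf4 89.2 CPM in 2H against 59.2 CPM. In DMSO libraries, Irs2 reached 37.3 CPM in library 1E against 10.6 CPM in the next, and Pik3r1 174 CPM in 2F against 108 CPM. DMSO library 1G held 3831 CPM of Ccl3 against 3010 CPM in the next, 365 CPM of Il12b against 286 CPM, and the lowest Rn45s share, 9.43%, where the next lowest was 17.8%. None of the Torin effects on these genes changed its side of the threshold when the library was left out.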

How the results depend on the processing

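Calls stayed within 1.5 times the 830 (477 higher, 353 lower) under RLE scaling, no plate term, no count filter or a minimum of 20 CPM, a fit of the 16 libraries alone, DESeq2, Rn45s and Lars2 left out, the Rn45s share as a covariate, and, added after seeing the data, a fit without library Tunicamycin 2F (758 to 935 genes). The genes tested in these fits ran from 2949 (the 16 libraries alone) to 16022 (no count filter), so their counts have unlike bases. Plate 1 alone, with fewer libraries, gave 438 (257 higher, 181 lower), plate 2 alone 328 (227 and 101), and a 2-fold minimum 295 (204 and 91). Leaving out 1 library or 1 well letter gave 564 to 807 called, 349 to 498 higher and 198 to 353 lower (lower genes: 232 without letter E and 221 without letter F). Marker sums were no longer past the threshold with same-named wells summed: the difference, Torin minus DMSO, was -1464 CPM for macrophage markers and 96.8 CPM for B cell markers (adjusted p = 0.114 for both), where the smallest possible p limits the test. Deviations of same-numbered Torin and DMSO wells correlated for letter G (r = 0.182 and 0.262 over 2670 genes) and by at most 0.0664 for the others (lowest -0.0420), and 6 of 16 wells were closest to their own number, so numbers were not treated as pairs, and the fit with plate and well letter as a replicate block called 849. For the same treatment and letter across plates, r ran from 0.0438 to 0.260, against means of -0.0538 (Torin) and -0.0483 (DMSO) for other letters. Beyond the losses given with their genes, plate 1 alone also lost the calls of Ripk2, Gabarapl1, Klf2, Atp6v1c1, Nfkbia, Rplp1 and Psmb3. Plate 2 alone also lost those of Flcn, Atg12, Gnl3, Il1a, Ch25h, Cish, Socs1, Stat2, Irf7, Isg15, Atp5d, Cox5b, Ndufb7 and Tuba1b. Flcn, Atg12 and Socs1 were lost without letter G, Il1a without letter H and Gnl3 without letter F. Depth limits low genes most.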

Other observations

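Hypoxia and glycolysis genes were mixed, with 37.5% called, against 16.7% of all genes. The count was 6 higher and 3 lower of 24 tested (39 listed), with a median of 0.07. Within plate 1 it was 4 higher and 1 lower, and within plate 2 it was 4 higher and none lower. Ndrg1, a stress-response gene whose protein SGK1 phosphorylates, had 269.8 to 406 CPM (median 335) in Torin libraries, 42.6 to 127 CPM (median 90.5) in DMSO libraries and 24.3 to 61.4 CPM (median 36.9) in NoStim libraries, with every Torin library above all DMSO and NoStim libraries (1.95 ± 0.19, adjusted p = 1.14e-16). The hexokinase gene Hk3 had 51 to 130.3 CPM (median 71.4) in Torin libraries and 27.1 to 43.4 CPM (median 30.8) in DMSO libraries, again without overlap (1.27 ± 0.28). Of 27 tested NRF2 targets (31 listed) none was higher and 5 were lower (18.5% called, against 16.7% of all genes). The median was -0.26, and none was called lower within plate 1 and 1 within plate 2. Srxn1, sulfiredoxin, was at 19.98 to 72.4 CPM (median 32.5) in Torin libraries and 46.5 to 92.1 CPM (median 67.4) in DMSO libraries (-0.87 ± 0.25), and it did not pass within plate 1 or without well letter E or G (-0.64 to -0.53, adjusted p 0.134 to 0.445).

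Among the largest changes outside these lists, Rgs1, a brake on G protein signalling, had 362 to 575 CPM (median 422) in Torin libraries, 44.5 to 92.1 CPM (median 59.1) in DMSO libraries and 15.8 to 48.9 CPM (median 27.5) in NoStim libraries (2.84 ± 0.23). Rilpl2, which encodes an effector of Rab GTPases, had 241 to 362 CPM (median 309) in Torin libraries, 18.6 to 67 CPM (median 44.7) in DMSO libraries and 27.2 to 71.6 CPM (median 47.8) in NoStim libraries (2.74 ± 0.20). Lhfpl2, a membrane protein gene, had 68 to 181 CPM (median 132) in Torin libraries, 3.54 to 24.8 CPM (median 15.3) in DMSO libraries and 58.6 to 123 CPM (median 98.6) in NoStim libraries (3.06 ± 0.28). None of the 3 overlapped between Torin and DMSO libraries.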
